A study of Mus musculus and Acomys cahirinus with 16 samples.

Results

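The IL-1 and IL-36 cytokine family was followed here through 10 genes chosen by name: the agonists Il1a, Il1b, Il36a, Il36g and Il33, the antagonists Il1rn and Il36rn, the receptor chains Il1r1 and Il1rap, and the decoy receptor Il1r2. All 10 were found in both count tables, among 56980 genes listed for mouse and 19818 for the African spiny mouse, Acomys cahirinus. Polyadenylated RNA was sequenced from 16 skin samples, with 4 in each of 4 groups: untreated Mus musculus skin, Mus musculus skin treated with DMBA/TPA, untreated Acomys cahirinus skin, and Acomys cahirinus skin treated with DMBA/TPA. DMBA is a mutagenic hydrocarbon used to initiate skin tumours, and TPA is a phorbol ester used to promote them. Strain, age, dose, schedule and whether a treated sample was tumour or surrounding skin are not given in the labels used here. Every sample is labelled as skin, although the series' own design text speaks of irradiated fibroblasts. Nothing in the labels states that replicates came from separate animals, so the p-values below measure the spread between these samples only.

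IL-1α and IL-1β signal through the receptor chain encoded by Il1r1 together with the accessory chain encoded by Il1rap, and the IL-36 cytokines and IL-33 use their own receptor chains with the same accessory chain. All of them activate NF-κB and MAP kinases through the adaptor MyD88, and keratinocytes are a main source of IL-1α, IL-33 and the IL-36 cytokines in skin. The antagonists occupy a receptor without signalling, and the decoy receptor binds IL-1 without passing on a signal.

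In mouse the IL-36 genes and Il1rn lie in 1 cluster, at chr2:24076488-24083580 (Il36g), chr2:24105430-24115714 (Il36a), chr2:24166966-24173438 (Il36rn) and chr2:24226865-24241506 (Il1rn) of GRCm39, all on the plus strand. Il1a (chr2:129141530-129151892) and Il1b (chr2:129206490-129213059) lie further along chromosome 2 on the minus strand. Il1r2 and Il1r1 neighbour each other on chromosome 1, Il1rap is on chromosome 16 and Il33 on chromosome 19. The spiny mouse assembly AcoCah2 has the same cluster on scaffold_10, in the order Il36g, Il36a, Il36rn, Il1rn, with Il36a, Il36g and Il36rn listed under their older symbols Il1f6, Il1f9 and Il1f5. Its Il1a and Il1b are on scaffold_1, Il1r1 and Il1r2 on scaffold_7, Il1rap on scaffold_4 and Il33 on scaffold_17.

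Responses to TPA run in part through AP-1 transcription factors. The mouse promoters of the members were therefore searched on both strands for TGANTCA, an AP-1 pattern that takes in the TPA response element. They were also searched for the κB consensus. RefSeq promoters of GRCm38.p6, from 250 bases before a start to 50 after it, were at hand for 9 members (14 windows, with none for Il36a). The AP-1 motif was found in 2 members, Il1a and Il1rn, in 1 window of each. It had the form TGACTCA in Il1a and its reverse complement, TGAGTCA, in Il1rn, both of which are covered by TGANTCA. Of all 32851 promoters of this length, 7.81% held TGANTCA and 5.2% held TGACTCA. The κB consensus was found in 1 member, Il1r1 (232 bases before the later of its starts), and in 4.51% of all promoters. The 250 bases before the start are given here for both members with the AP-1 motif, in capitals, and for Il1b and Il36g. These 2 carry the largest changes in spiny mouse, whose promoters were not searched, and their mouse windows hold neither motif. The windows are chr2:129309973-129310222 (Il1a, minus strand), chr2:24336610-24336859 (Il1rn, plus), chr2:129371140-129371389 (Il1b, minus) and chr2:24186226-24186475 (Il36g, plus).
Il1a: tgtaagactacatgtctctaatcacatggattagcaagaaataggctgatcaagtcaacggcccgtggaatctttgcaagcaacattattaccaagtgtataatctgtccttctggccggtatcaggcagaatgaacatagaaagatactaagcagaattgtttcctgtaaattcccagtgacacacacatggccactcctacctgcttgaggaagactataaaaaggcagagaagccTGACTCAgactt
Il1rn: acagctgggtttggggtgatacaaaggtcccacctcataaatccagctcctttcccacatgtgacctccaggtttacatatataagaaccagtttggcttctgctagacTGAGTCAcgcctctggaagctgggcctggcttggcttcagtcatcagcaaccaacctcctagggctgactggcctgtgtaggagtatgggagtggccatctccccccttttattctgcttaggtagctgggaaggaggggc
Il1b: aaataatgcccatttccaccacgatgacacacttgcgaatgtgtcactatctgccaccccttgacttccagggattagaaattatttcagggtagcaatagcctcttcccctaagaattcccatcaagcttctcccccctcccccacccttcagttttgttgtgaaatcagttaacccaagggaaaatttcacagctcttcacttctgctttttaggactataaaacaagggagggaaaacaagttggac
Il36g: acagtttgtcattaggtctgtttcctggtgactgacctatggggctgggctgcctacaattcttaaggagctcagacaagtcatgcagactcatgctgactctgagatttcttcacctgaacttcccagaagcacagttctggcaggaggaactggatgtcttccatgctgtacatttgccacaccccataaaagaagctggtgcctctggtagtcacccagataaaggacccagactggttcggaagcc
The motif begins 12 bases before the Il1a start and 141 bases before the first of the Il1rn starts. The windows of the later Il1rn starts held no AP-1 motif. A match of letters is a description of these windows and not a measured binding site.

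Between 19608787 and 30561256 reads were counted to genes per sample, so that 3 counts corresponded to 0.098 to 0.153 CPM, the unit that scales a gene's counts to the library total. Mouse untreated replicate 2, whose column name carries a suffix that the others lack, stood apart. Its summed anagen hair follicle markers were at 1660 CPM against 18.6 to 39.7 in the other untreated mouse samples, its skeletal muscle markers at 61600 CPM against 20100 to 23700, and its keratinocyte markers at 9190 CPM against 12100 to 16800. It had the lowest CPM of its group for 9 of the 10 members, Il1r1 being the exception. Untreated spiny mouse samples also split, with hair follicle sums of 6980 and 8170 CPM in replicates 1 and 2 and 810 and 2450 CPM in 3 and 4. Between these 2 sets the counts differed by a chi-square per degree of freedom of 85.1 to 155, beside 34.6 and 22.6 within them. Keratinocyte markers (8 genes, the defining transcripts of epidermis) were present in every sample, from 9190 to 35500 CPM in mouse and from 16600 to 34200 CPM in spiny mouse. In both species their sum did not overlap between the untreated and the treated samples, and its part in the changes below was not tested. These are bulk samples, in which fewer cells of a type and less RNA per cell cannot be told apart.

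Most members changed with treatment in each species, and their directions parted for Il36rn. DMBA/TPA skin of mice carried more Il36a, Il36g, Il36rn, Il33, Il1a and Il1rn and less Il1r2, a call for 7 of 10 members where 61.2% of all 19740 genes tested were called (6 higher, with 25.9% of all genes called higher, and 1 lower, with 35.3%). DMBA/TPA skin of spiny mice carried more Il1b, Il36g, Il36a, Il1rn, Il33 and Il1r1 and less Il1r2, Il36rn and Il1rap, a call for 9 of 10 members where 55.1% of 14833 genes were called (6 higher, beside 28.2% of all genes, and 3 lower, beside 26.9%). The 2 groups lay apart, with no overlap, for 7 of 10 members in mouse, beside 58.6% of all genes, and for 9 of 10 in spiny mouse, beside 50.9%. With backgrounds this high, the number of members called says little about the family, and the size and direction of each change carry the description. A gene was called at a Benjamini-Hochberg adjusted p under 0.05 in edgeR's quasi-likelihood test over all genes of a species. The median log2 fold change of the members was 1.07 in mouse and 0.77 in spiny mouse, beside -0.15 and -0.01 over all genes tested. The test of the species difference called 5 members, where 46.1% of 13760 shared genes were called, 21.4% higher and 24.7% lower. For 3 of them the log2 fold change was higher in spiny mouse (Il1b, Il1rn and Il1r2, which fell less there). For 2 it was higher in mouse (Il36rn, Il1a). Without mouse untreated replicate 2 the mouse counts were again 6 higher and 1 lower, and the species difference also called Il1rap. The background rose as well, to 13944 of 20009 genes called in mouse (6710 higher) and 7764 of 13805 for the species difference. The mouse log2 fold changes without that sample were 3.55 for Il36a, 1.91 for Il36g, 1.67 for Il33, 1.45 for Il36rn, 0.92 for Il1rn, 0.89 for Il1a, 0.16 for Il1r1, 0.06 for Il1rap, 0.03 for Il1b and -2.14 for Il1r2.

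**Figure D1:**
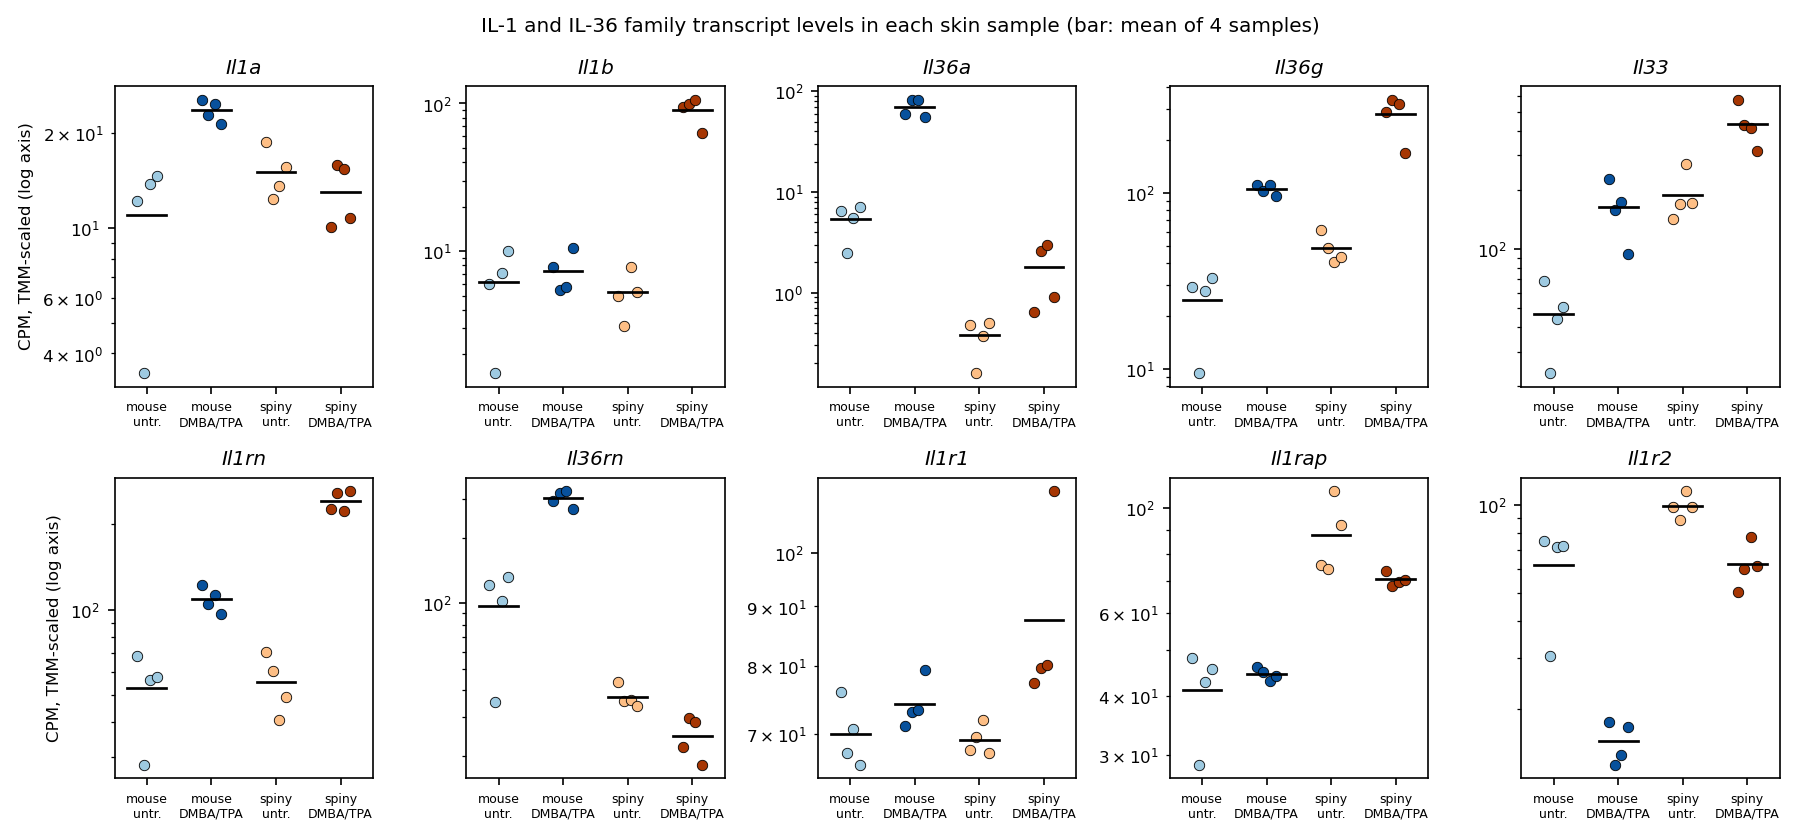
CPM (log axis, scaled by TMM factors within a species) of each member in each of the 16 samples; points are samples in replicate order and bars are means of 4. Il1b is between 1.49 and 10.5 CPM in 3 groups and between 63.4 and 106 CPM in treated spiny mouse skin, and 1 untreated mouse sample lies below the others in most panels.

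Il1b, which encodes the IL-1β precursor made by myeloid cells and stressed epithelium, set the species apart most. Untreated mouse skin had 5.94, 1.49, 7.11 and 10.02 CPM in replicates 1 to 4, and treated mouse skin had 7.77, 5.45, 5.71 and 10.5 CPM. The groups overlapped, and the log2 fold change of 0.26 (95% interval -0.78 to 1.3) was not called (edgeR adjusted p = 0.643). In spiny mouse the untreated samples had 5.0, 3.13, 7.83 and 5.26 CPM and the treated samples 94.0, 98.8, 106 and 63.4 CPM. All 4 treated samples lay far above every untreated one, the fourth being the lowest of them. The change was 17.0-fold, a log2 fold change of 4.09 ± 0.276 (standard error; edgeR adjusted p = 1.23e-05), and it ranked 47 among the 14833 genes tested by log2 fold change. The species difference of the log2 fold changes was 3.83 ± 0.56 (standard error; edgeR adjusted p = 6.58e-05).

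Il1a encodes IL-1α, an alarmin held in keratinocytes, and it changed in the other species. Mouse levels were 12.2, 3.46, 13.8 and 14.7 CPM untreated and 25.6, 22.9, 24.8 and 21.5 CPM treated. The mouse groups did not overlap, and the log2 fold change was 1.10 ± 0.356 (standard error; edgeR adjusted p = 0.0235). That call was lost without treated replicate 1, at a log2 fold change of 1.08 (edgeR adjusted p = 0.0517, range over the 16 alternatives 1.67e-05 to 0.0517). In spiny mouse, Il1a was at 18.8, 12.3, 13.6 and 15.6 CPM untreated and at 10.1, 15.9, 15.4 and 10.8 CPM treated. These groups overlapped, and the log2 fold change of -0.21 (95% interval -0.62 to 0.21) was not called (edgeR adjusted p = 0.365). The species difference, -1.30 on the log2 scale, was called (edgeR adjusted p = 0.0204). In mouse, exons of Il1a and Il1b overlap those of antisense genes. The antisense genes had 15 to 41 counts (Gm14023) and 3 to 62 counts (Il1bos) per sample, beside 79 to 681 for Il1a and 34 to 282 for Il1b. Counting used no strand setting, so reads on the overlapping stretches cannot be told apart by strand. Whether such reads were counted for a gene or left out was not tested.

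Il36a, an epidermal agonist of the IL-36 receptor, was the member with the largest change in mouse. It stood at 6.39, 2.46, 5.57 and 7.11 CPM in untreated mouse skin and at 60.0, 82.4, 82.3 and 55.2 CPM in treated mouse skin. Every treated sample was above 55 CPM and no untreated one reached 8, a 13-fold change (log2 3.70 ± 0.308 SE; edgeR adjusted p = 2.22e-05). In spiny mouse the gene was scarcely counted, with 4 to 14 reads per untreated sample (0.476, 0.159, 0.374 and 0.503 CPM) and 14 to 82 per treated sample (0.637, 2.57, 3.0 and 0.914 CPM). The spiny mouse groups did not overlap, although treated replicates 1 and 4 lay close to the untreated samples, and the log2 fold change was 2.24 ± 0.553 (standard error; edgeR adjusted p = 0.00734). The species difference of -1.44 (95% interval -2.9 to 0.03) was not called by edgeR (adjusted p = 0.1, range over 24 alternatives 0.0181 to 0.205). It was called by DESeq2, at -1.56 (adjusted p = 0.0181), and by edgeR without spiny mouse treated replicate 3, at -1.8 (adjusted p = 0.0446).

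Il36g, the other IL-36 agonist of the set and one that keratinocytes release, rose in both species. Untreated mouse samples had 29.1, 9.47, 27.8 and 32.7 CPM and treated ones 111, 103, 111 and 96.4 CPM, with a log2 fold change of 2.09 ± 0.319 (standard error; edgeR adjusted p = 0.000547). Untreated spiny mouse samples had 61.8, 48.5, 40.3 and 43.4 CPM and treated ones 290, 339, 320 and 169 CPM, with a log2 fold change of 2.53 ± 0.226 (standard error; edgeR adjusted p = 3.96e-05). Neither pair of groups overlapped. The difference between the 2 changes was 0.44 (95% interval -0.42 to 1.3; edgeR adjusted p = 0.394) and was not called.

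Il33, a nuclear alarmin of epithelial and stromal cells, also rose in both. It was at 68.9, 23.3, 44.1 and 50.5 CPM in untreated mouse skin and at 227, 158, 173 and 94.1 CPM in treated mouse skin (log2 fold change 1.80 ± 0.344 SE; edgeR adjusted p = 0.00182). Spiny mouse samples had 142, 170, 270 and 172 CPM untreated and 577, 427, 412 and 317 CPM treated (log2 fold change 1.20 ± 0.227 SE; edgeR adjusted p = 0.00186). The groups did not overlap in either species, the fourth treated sample being the lowest in both. The species difference of -0.60 (95% interval -1.53 to 0.32) was not called (edgeR adjusted p = 0.272).

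Among the antagonists, Il1rn rose in both species and Il36rn went opposite ways. Il1rn encodes the IL-1 receptor antagonist, in a secreted form and in forms kept inside keratinocytes. Mouse skin had 68.8, 28.3, 56.5 and 57.6 CPM untreated and 122, 104, 113 and 96.3 CPM treated, a log2 fold change of 1.04 ± 0.234 (standard error; edgeR adjusted p = 0.00423). Spiny mouse skin had 70.8, 60.7, 40.7 and 49.0 CPM untreated and 228, 259, 222 and 262 CPM treated, a log2 fold change of 2.13 ± 0.161 (standard error; edgeR adjusted p = 2e-05). Neither pair of groups overlapped, and the log2 change was larger in spiny mouse by 1.09 (edgeR adjusted p = 0.00782).

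Il36rn encodes the antagonist of the IL-36 receptor. In mouse its level was 121, 35.1, 102 and 132 CPM untreated and 296, 323, 328 and 270 CPM treated. No treated mouse sample was below any untreated one, and the log2 fold change was 1.64 ± 0.344 (standard error; edgeR adjusted p = 0.00295). In spiny mouse it was 43.5, 35.6, 36.0 and 33.9 CPM untreated and 21.8, 29.9, 28.4 and 18.2 CPM treated. There all 4 treated samples were the lower ones, and the level fell by 0.60 on the log2 scale (SE 0.158; edgeR adjusted p = 0.0104). The 2 changes differed by -2.24 on the log2 scale (95% interval -3.09 to -1.39; edgeR adjusted p = 0.000356), the largest species difference among the members after that of Il1b.

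The decoy receptor gene Il1r2 fell in both species, and further in mouse. Mouse samples had 75.0, 30.3, 71.8 and 72.2 CPM untreated and 18.1, 12.9, 14 and 17.4 CPM treated, so that even the low untreated replicate 2 was above all treated samples. The level was 4.0-fold lower, a log2 fold change of -2.0 ± 0.273 (standard error; edgeR adjusted p = 0.000297). Spiny mouse samples had 97.7, 88.6, 111 and 97.9 CPM untreated and 50.4, 60.4, 77.7 and 61.7 CPM treated, again without overlap. That log2 fold change was -0.66 ± 0.126 (standard error; edgeR adjusted p = 0.00191), and the species difference was 1.34 (edgeR adjusted p = 0.0028).

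The signalling chains moved little. Il1r1, the IL-1 binding chain, ranged from 65.9 to 76.0 CPM in untreated and from 71.0 to 79.4 CPM in treated mouse skin, and its log2 fold change of 0.08 (95% interval -0.11 to 0.28) was not called (edgeR adjusted p = 0.411). Untreated spiny mouse samples had 67.8, 69.5, 71.9 and 67.4 CPM and treated ones 77.4, 79.7, 80.2 and 113 CPM. The groups did not overlap, but treated replicate 4 stood well above the others. The log2 fold change was 0.34 ± 0.118 (standard error; edgeR adjusted p = 0.0337), 0.21 without that sample, and it was called in 11 of 16 alternatives (edgeR and DESeq2 adjusted p from 0.0155 to 0.0762).

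Il1rap, the shared accessory chain, ranged from 28.7 to 48.1 CPM in untreated and from 43.1 to 46.1 CPM in treated mouse skin, with a log2 fold change of 0.11 (95% interval -0.23 to 0.45; edgeR adjusted p = 0.548). Its exons overlap the antisense gene Gm20319 in mouse, which had 0 to 25 counts per sample. In spiny mouse it ranged from 74.3 to 108 CPM untreated and from 68.4 to 73.6 CPM treated, the untreated replicates 3 and 4 being the high ones. That change, a log2 fold change of -0.31 ± 0.116 (SE), passed the threshold narrowly (edgeR adjusted p = 0.0437) and in 7 of 16 alternatives (adjusted p from 0.0181 to 0.1), and it was -0.19 without untreated replicate 3. Species differences were 0.26 (95% interval -0.06 to 0.57) for Il1r1 and -0.42 (95% interval -0.84 to 0.0) for Il1rap, and neither was called (edgeR adjusted p = 0.168 and 0.0943).

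**Figure D2:**
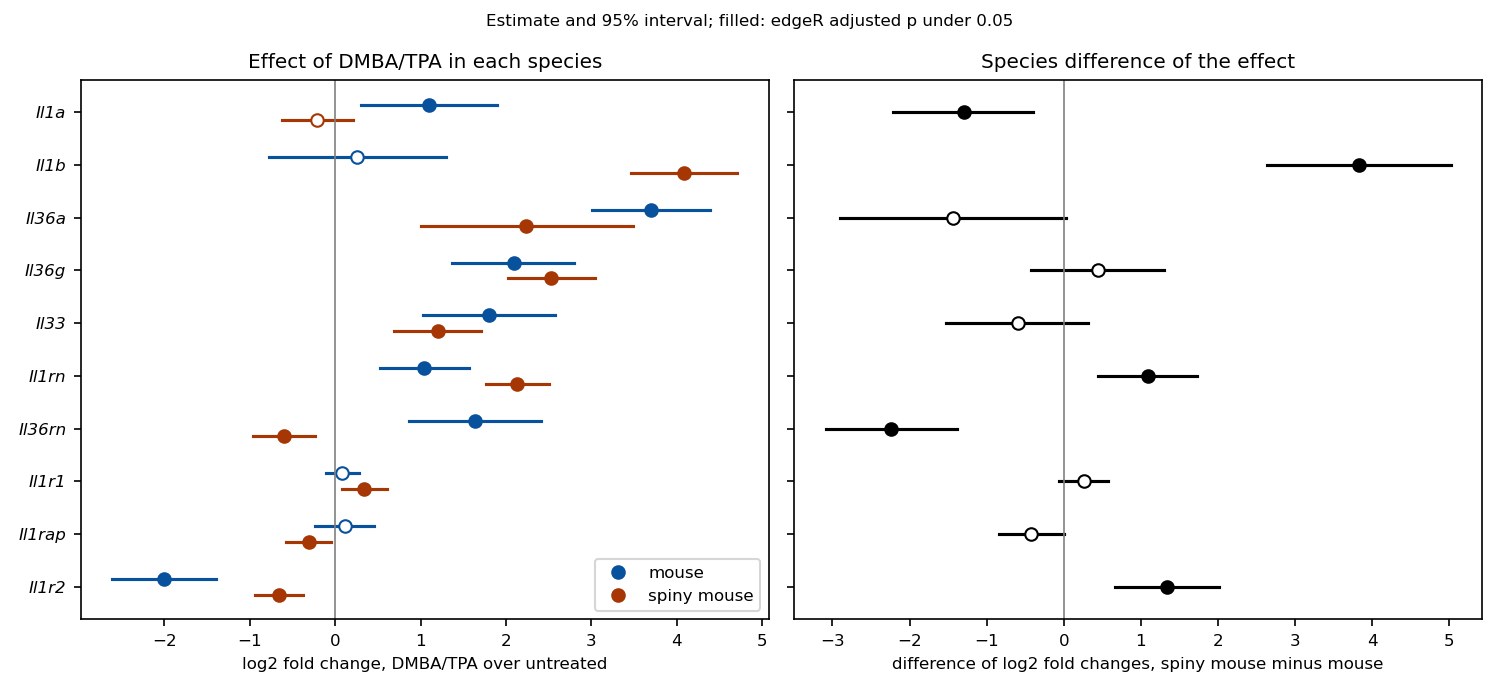
Left, log2 fold change of treated over untreated skin in mouse and in spiny mouse; right, the difference of the 2 log2 fold changes (spiny mouse minus mouse). Points are estimates with 95% intervals and filled points have an edgeR adjusted p under 0.05; Il1b (3.83) and Il36rn (-2.24) lie furthest from 0 on the right.

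Levels of different genes were compared within a species as FPKM, the TMM-scaled CPM per kilobase of the deposited gene length. In untreated mouse skin the order of the group means was Il1r2 (32.7 FPKM), Il36rn (21.7), Il33 (16.2), Il36g (15), Il1r1 (11), Il1rn (9.54), Il36a (6.09), Il1a (5.59), Il1rap (3.64) and Il1b (3.22), and the ranges of all neighbours in it overlapped. Without replicate 2, Il1r2 and Il36rn, Il36g and Il1r1, Il1rn and Il36a, and Il1a and Il1rap did not overlap. In treated mouse skin Il36a (79.2 FPKM), Il36rn (67.7), Il36g (63.9) and Il33 (56.5) came first, with overlapping ranges. Il1rn (19.6 FPKM), Il1a (12.0), Il1r1 (11.7), Il1r2 (8.17), Il1rap (3.92) and Il1b (3.85) followed, where Il1a overlapped Il1r1 and Il1rap overlapped Il1b.

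In untreated spiny mouse skin Il33 (67.1 FPKM), Il36g (48.8), Il1r2 (41.4) and Il36rn (36.9) led with ranges that overlapped from each to the next. Below them came Il1rn (19.4 FPKM), Il1r1 (12.6), Il1a (7.56), Il1rap (6.54), Il1b (2.83) and Il36a (0.443), of which only Il1a and Il1rap overlapped their neighbour. In treated spiny mouse skin the order was Il36g (282 FPKM), Il33 (154), Il1rn (85.3), Il1b (48.4), Il1r2 (26.2), Il36rn (24.3), Il1r1 (15.9), Il1a (6.54), Il1rap (5.26) and Il36a (2.09). Neighbours overlapped there between Il36g and Il33, between Il1r2 and Il36rn, between Il36rn and Il1r1, and between Il1a and Il1rap. Il1b thus moved from the ninth place to the fourth in spiny mouse and came last in both mouse groups.

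The make-up of the agonist transcripts was taken as each gene's percent of the summed FPKM of 6 agonists, the 5 above and Il36b, the remaining IL-36 agonist. In mouse, Il36a went from 11% ± 1.25 (SD, n = 4) to 30.2% ± 4.1, and Il1b from 5.31% ± 1.70 to 1.54% ± 0.744. In spiny mouse, Il36g went from 32.6% ± 6.73 to 53.6% ± 4.24, Il1b from 1.85% ± 0.513 to 9.35% ± 0.671, and Il33 from 44.2% ± 10.1 to 29.9% ± 4.93. Il36a made up 0.291% of the untreated and 0.392% of the treated spiny mouse agonist transcripts. Il36g was the most abundant agonist transcript of treated spiny mouse skin, whereas in treated mouse skin Il36a, Il36g (24.6%), Il33 (21.2%) and Il36b (17.9%) shared most of the total.

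**Figure D3:**
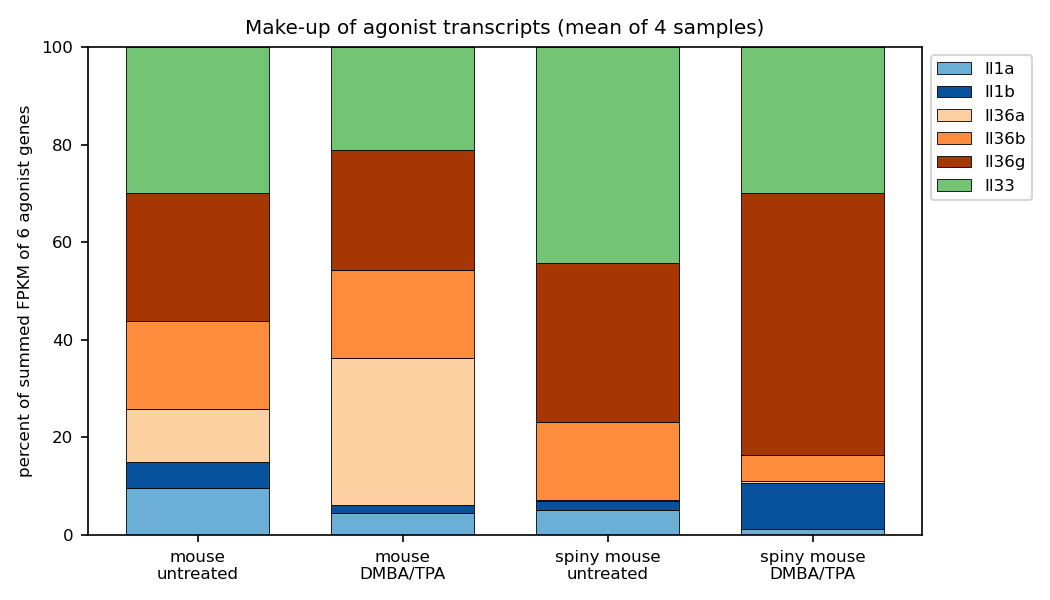
Percent of the summed FPKM of 6 agonist genes taken by each gene, as the mean of 4 samples per group. Il36a takes 30.2% in treated mouse skin and 0.392% in treated spiny mouse skin, where Il36g takes 53.6%.

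Each antagonist was then set over competing agonists, and the decoy receptor over Il1r1, in each sample, per length and without a test. The ratio of Il1rn to Il1a plus Il1b was 1.34, 2.01, 0.952 and 0.82 in untreated and 1.29, 1.3, 1.31 and 1.06 in treated mouse skin. In spiny mouse it was 2.06, 2.71, 1.3 and 1.62 untreated and 1.45, 1.5, 1.21 and 2.35 treated. The groups overlapped in both species, where Il1rn rose beside Il1a (mouse) or Il1b (spiny mouse).

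For IL-36 the ratio of Il36rn to Il36a plus Il36g was 1.08, 0.917, 0.981 and 1.05 in untreated and 0.487, 0.462, 0.454 and 0.497 in treated mouse skin. In spiny mouse it went from 0.686, 0.72, 0.868 and 0.757 to 0.0739, 0.0859, 0.0862 and 0.105. No treated sample overlapped an untreated one in either species. The agonist Il36b was left out of this ratio. Its log2 fold change was 2.12 in mouse and 0.22, not called, in spiny mouse. The mouse samples, replicate 2 included, lay close together within each group on this ratio.

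The ratio of decoy to signalling receptor, Il1r2 to Il1r1, was 3.29, 1.5, 3.39 and 3.66 in untreated and 0.85, 0.59, 0.635 and 0.73 in treated mouse skin. It was 3.32, 2.93, 3.56 and 3.34 in untreated and 1.5, 1.74, 2.23 and 1.25 in treated spiny mouse skin. Again the groups did not overlap within a species. Ratios of different genes depend on the lengths used, which for Il36rn were 4493 bases in mouse and 1010 in spiny mouse, so they are compared here only between groups of a species.

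**Figure D4:**
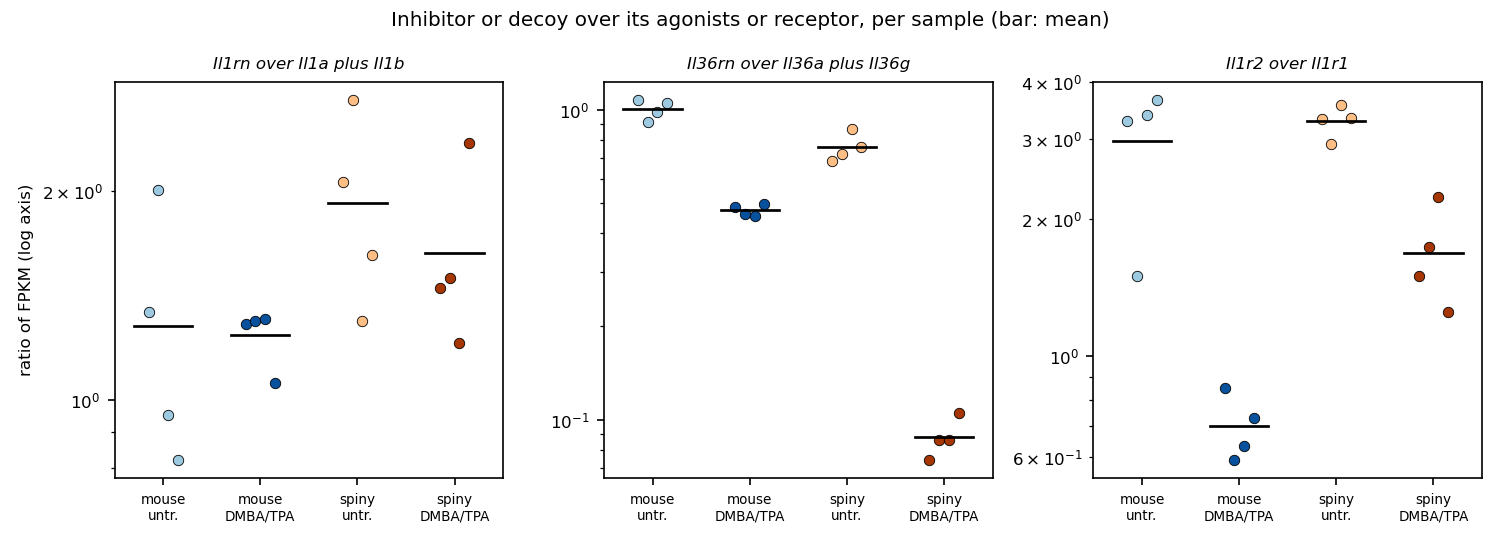
Ratio of FPKM (log axis) of antagonist to agonists for IL-1 and IL-36 and of decoy to signalling receptor, for each sample, with bars at the mean of 4. The IL-36 agonists here are Il36a and Il36g, without Il36b. The IL-36 ratio falls from a mean of 0.758 to 0.0878 in spiny mouse and from 1.01 to 0.475 in mouse, and the IL-1 ratio overlaps between groups.

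The remaining ligands of the family, from a list of 4 other ligands and binding proteins, split by species. Il36b had a log2 fold change of 2.12 ± 0.405 (standard error; edgeR adjusted p = 0.00185) in mouse and of 0.22 (edgeR adjusted p = 0.438, not called) in spiny mouse. Il1f10, which encodes IL-38, an antagonist-like member, rose by 1.19 on the log2 scale in mouse and fell by 2.06 in spiny mouse (edgeR adjusted p = 0.00126 and 0.000688). Il18, a relative processed by caspase-1, had a log2 fold change of 0.49 in mouse (edgeR adjusted p = 0.15, called in 1 of 16 alternatives) and of -1.29 in spiny mouse (edgeR adjusted p = 0.000324). Il18bp, its soluble inhibitor, fell by 1.07 in mouse and rose by 0.58 in spiny mouse (edgeR adjusted p = 0.0053 and 0.0187, the latter called in 14 of 16 alternatives). The species difference was called for all 4 of them, beside 46.1% of all shared genes.

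Of 7 other receptors of the family, 5 passed the count filter in each species and 2 were called in each. In mouse the called receptors were Sigirr, an inhibitory receptor, and Il18r1, both at a log2 fold change of -1.2 (edgeR adjusted p = 0.00237 and 0.000661). In spiny mouse they were Il18rap at 2.31 and Sigirr at 0.70 (edgeR adjusted p = 0.000921 and 0.000481). Il1rl1, the IL-33 receptor, and Il1rl2, the IL-36 receptor, were called in neither species, with log2 fold changes of -0.06 and 0.14 in mouse and -0.33 and -0.16 in spiny mouse (edgeR adjusted p from 0.331 to 0.862).

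Among 19 genes of the signalling route to NF-κB, 8 were called in mouse (7 higher) and 6 in spiny mouse (5 higher), with median log2 fold changes of 0.17 and 0.12. Of all genes tested, 61.2% were called in mouse (25.9% higher) and 55.1% in spiny mouse (28.2% higher), so neither total of calls exceeded its background. The species difference was called for 12 of the 19, 6 with the larger value in each species, beside 46.1% of all shared genes. Without mouse untreated replicate 2, 11 of these genes were called in mouse (10 higher). Species differences were then called for 10 (2 larger in spiny mouse and 8 in mouse). Of all genes in those fits, 13944 of 20009 were called in mouse (6710 higher). Of all species differences, 7764 of 13805 were called (3094 larger in spiny mouse). Myd88, the adaptor of all these receptors, rose in both, by 1.03 in mouse and 0.62 in spiny mouse (edgeR adjusted p = 0.00331 and 0.000173). Peli1, a ubiquitin ligase of the receptor complex, rose by 0.59 in mouse, and Relb, an NF-κB subunit, fell by 0.54 there (edgeR adjusted p = 0.00298 and 0.00672). Nfkb1, another subunit, led the spiny mouse calls at 0.68, and Tab1, a partner of the kinase TAK1, fell by 0.35 (edgeR adjusted p = 0.000103 and 0.00372). Nfkbiz, a co-activator induced by IL-1 and IL-36, was called in neither species (log2 fold change 0.26 in mouse and -0.30 in spiny mouse; edgeR adjusted p = 0.121 and 0.0581), though in 2 and 3 of 16 alternatives. Its species difference of -0.56 was called (edgeR adjusted p = 0.0226, and in 21 of 24 alternatives). Of 10 negative regulators, 6 were called in each species, 3 higher in mouse and 4 in spiny mouse, and the species difference was called for 5. These counts are near the shares over all genes, which were 61.2% in mouse, 55.1% in spiny mouse and 46.1% for the species difference. Zc3h12a, an RNase that degrades cytokine transcripts, led in mouse at 1.07, and Tnfaip3, the ubiquitin-editing enzyme A20, led in spiny mouse at 0.87 (edgeR adjusted p = 0.000563 and 0.000286). Cyld, a deubiquitinase, had a log2 fold change of -0.84 in mouse and of 0.21 in spiny mouse (edgeR adjusted p = 4.03e-05 and 0.019).

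Genes of cytokine processing and release were mostly called higher in spiny mouse and mostly lower, where called, in mouse. From this list of 16 proteases and inflammasome parts, 14 were tested in mouse, with 2 higher and 5 lower (median log2 fold change -0.64), and 11 in spiny mouse, with 10 higher and none lower (median 0.95). Over all genes, 25.9% were called higher and 35.3% lower in mouse, and 28.2% and 26.9% in spiny mouse. The 5 of 14 called lower in mouse are near that background. Without mouse untreated replicate 2 the mouse counts were 2 higher and 8 lower, beside 6710 higher and 7234 lower of all 20009 genes. The species difference was called for 9 of 11, 8 of them with the larger value in spiny mouse. Of all shared genes 46.1% were called, 21.4% with the larger value in spiny mouse. Aim2 and Nlrp3, sensors that assemble inflammasomes, had log2 fold changes of 3.27 and 2.78 in spiny mouse (edgeR adjusted p = 3.54e-06 and 1.05e-05). In mouse they had -0.63 and -0.64 (edgeR adjusted p = 0.01 and 0.174). Casp1, the protease that cleaves the IL-1β precursor, had a log2 fold change of 1.01 in spiny mouse (edgeR adjusted p = 0.000165) and of 0.17 in mouse (edgeR adjusted p = 0.549). Casp4, an inflammatory caspase, fell by 1.77 in mouse and rose by 1.20 in spiny mouse (edgeR adjusted p = 0.000114 and 3.14e-05), a species difference of 2.97 (edgeR adjusted p = 2.57e-07). Nlrp1b, another inflammasome sensor, had the lowest mouse value, -2.10 (edgeR adjusted p = 0.000519). Capn2, a calpain of the family that cleaves the IL-1α precursor, rose in both, by 0.92 in mouse and 0.32 in spiny mouse (edgeR adjusted p = 0.000817 and 0.00302).

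Genes known to be induced by IL-1 and IL-36 were nearly all called higher after treatment in spiny mouse, whereas in mouse about as many were not called as were called. Of 24 listed, 20 were tested in mouse, with 9 higher and 1 lower (median log2 fold change 0.56), and 22 in spiny mouse, with 20 higher and 1 lower (median 3.06). Over all genes tested, 61.2% were called in mouse (25.9% higher) and 55.1% in spiny mouse (28.2% higher). The gene called lower was in both species Nos2, the inducible nitric oxide synthase (-1.25 in mouse, called in 11 of 16 alternatives, and -1.93 in spiny mouse). Cxcl2, a neutrophil chemokine, had mean levels of 2.31 CPM untreated and 64.4 CPM treated in spiny mouse, beside 3.08 and 2.26 CPM in mouse. Its log2 fold change was 4.78 ± 0.361 (standard error; edgeR adjusted p = 1.99e-05) in spiny mouse and -0.44 (edgeR adjusted p = 0.581) in mouse. Il6, a cytokine of the acute phase, went from 1.48 to 30.8 CPM in spiny mouse (log2 fold change 4.39; edgeR adjusted p = 8.52e-06) and was under the count filter in mouse, at 0.269 and 0.557 CPM.

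Other genes of that list rose in both species. S100a8 and S100a9, which encode the calprotectin subunits of neutrophils and stressed keratinocytes, had log2 fold changes of 6.27 and 6.34 in mouse and of 4.56 and 6.41 in spiny mouse (edgeR adjusted p from 2.01e-06 to 0.000125). Il24, an IL-20 family cytokine, had 4.86 in mouse and 7.27 in spiny mouse (edgeR adjusted p = 0.000104 and 3.54e-06). Cxcl1, another neutrophil chemokine, had 2.01 and 1.21 (edgeR adjusted p = 0.00311 and 0.0035). The species difference was called for 12 of 18 genes of the list, beside 46.1% of all shared genes. For 10 the value was larger in spiny mouse, led by Cxcl2 (5.21) and Ccl4 (4.10), beside 21.4% of shared genes. For 2 it was larger in mouse, S100a8 (-1.72, called in 10 of 24 alternatives) and Lcn2 (-1.53), beside 24.7%. Without mouse untreated replicate 2 the list had 9 higher and 3 lower of 22 tested in mouse, and the species difference was called for 14 of 20. Over all genes, 6710 were then higher and 7234 lower of 20009 in mouse, and 7764 of 13805 species differences were called.

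**Figure D5:**
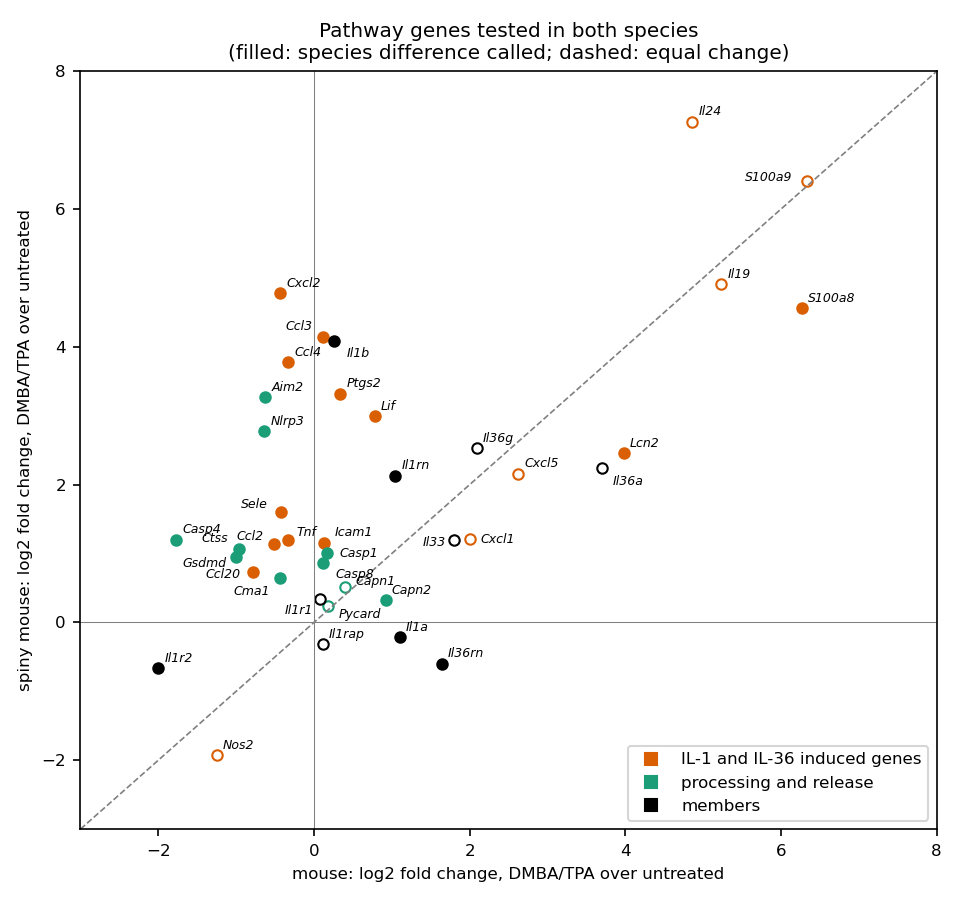
Log2 fold change of treated over untreated skin in mouse (x axis) and spiny mouse (y axis) for the members and for 2 gene lists, each point being a gene tested in both species. Filled points have a called species difference and the dashed line marks equal change; Il1b, Cxcl2, Aim2 and Nlrp3 lie high near a mouse value of 0, and Il36rn and Il1a lie to the right near or below a spiny mouse value of 0.

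Markers of other cells moved as well, and their part in the changes of the members was not tested. Of all genes tested, 61.2% were called in mouse, 25.9% higher and 35.3% lower. In spiny mouse these shares were 55.1%, 28.2% and 26.9%, and the marker counts stand beside them. Leaving out mouse untreated replicate 2, 6710 of 20009 mouse genes were called higher and 7234 lower. Neutrophil markers summed to 7.19 to 13.1 CPM in untreated and 21.0 to 33.1 CPM in treated mouse skin (10 genes; 3 of 4 tested were called, all higher). Without untreated replicate 2, 3 of 6 neutrophil markers tested were called, all higher. Their median log2 fold change was then 0.42, against 1.07 with that sample. In spiny mouse they summed to 29.0 to 45.9 CPM untreated and 84.9 to 113 CPM treated (9 genes; 6 of 7 called, 5 higher), and Retnlg was at 0 in all 8 samples. Macrophage markers overlapped between the mouse groups, at 668 to 2070 CPM untreated and 749 to 1110 CPM treated (2 of 10 called, both lower; 5 of 10, all lower, without untreated replicate 2). In spiny mouse they went from 540 to 648 CPM up to 1030 to 1670 CPM (5 of 9 called, all higher). T cell markers summed to 21.7 to 35.0 and 11.4 to 13.7 CPM in the mouse groups, and to 35.3 to 60.6 and 53.0 to 105 CPM in the spiny mouse groups. They were called lower for 5 of 7 genes in mouse and higher for 3 of 6 in spiny mouse.

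The epithelial and tissue markers shifted further, and their call counts stand beside the same shares of all genes. Anagen hair follicle markers, the keratins and regulators of growing hair, went from 18.6 to 1660 CPM untreated up to 17100 to 18200 CPM treated in mouse (7 of 8 called, all higher). In spiny mouse their sum had a mean of 4600 CPM untreated and 883 CPM treated, with ranges of 810 to 8170 and 162 to 2320 CPM that overlapped (4 of 7 called, all lower). The species difference was called for all 7 hair follicle genes tested, beside 46.1% of all shared genes. Skeletal muscle markers had mean sums of 32100 CPM untreated and 3710 CPM treated in mouse (6 of 6 called lower), and of 16100 and 7790 CPM in spiny mouse (5 of 5 called lower). Markers of hyperproliferative epidermis, such as the wound keratins, were called higher for all 5 genes tested in mouse and all 4 in spiny mouse. Keratinocyte markers were called higher for 6 of 8 genes in mouse and 5 of 8 in spiny mouse. Fibroblast markers had 2 of 6 called in mouse, both lower, and 4 of 6 in spiny mouse, 3 of them lower. Endothelial markers had 4 of 6 called in mouse, all lower, and 3 of 6 in spiny mouse, 2 of them lower. Langerhans cell markers had 2 higher and 2 lower of 4 in mouse and 2 lower of 4 in spiny mouse. Mast cell markers had 1 of 7 called in mouse, higher, and 3 of 5 in spiny mouse, 2 of them higher. In mouse without untreated replicate 2, mast cell markers had 1 higher and 4 lower of 7 and fibroblast markers 3 lower of 6. All 8 hair follicle markers were higher there. Of all 20009 mouse genes in that fit, 6710 were called higher and 7234 lower.

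The genes whose CPM followed Il1b most closely over the 8 samples of a species were ranked by Pearson's correlation of log2 CPM, as a description in which samples share treatment and depth. In spiny mouse these were Cdhr1, Pla2g4e, Capn1, Snrpb2 and Slc28a3 (r from 0.994 to 0.997, of 13274 genes ranked). In mouse they were Ptgs2, which encodes the inducible cyclooxygenase, then Bsdc1, Itgb5, Mafk and Slc35e4 (r from 0.951 to 0.959, of 14810 genes). No gene was among the top 5 in both species. For Il1rn the first genes were Clptm1l in mouse and Ap2m1 in spiny mouse (r = 0.998 and 0.994), and for Il33 they were Sh3kbp1 and Tmem33 (r = 0.995 and 0.992).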

How the data were processed

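The deposited values are whole-number read counts per gene, 1 table per species, which per the file headers the authors made with featureCounts 2.0.3, with no strand option in the recorded command although the labels name a stranded library. Per the submitters' processing notes, Trim Galore and HISAT2 were also used, and the mouse build was GRCm39. Mouse identifiers were given symbols from GENCODE (56236 of 56980 matched), and 140 older spiny mouse symbols were replaced through RefSeq synonyms. No value in the tables was left unmapped to a sample.

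Each species was fitted separately with edgeR 4.0.16 (filterByExpr, TMM factors, quasi-likelihood F test, no covariate). The species difference was tested as an interaction term, for symbols that occur 1 time in both tables and that passed both filters. P-values were adjusted by Benjamini-Hochberg over all genes tested. Standard errors were derived from the log2 fold change and its F statistic, and n was 4 per group throughout. Levels are TMM-scaled CPM, and FPKM divides them by the deposited gene length. Counts of 34 or more lie behind each member's value except spiny mouse Il36a; intervals cover the spread between samples. No pair of replicates agreed within sampling noise (chi-square per degree of freedom 11.4 to 165.8). The fits were tested on simulated counts.

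The members and the 18 gene lists were chosen with earlier results of these data known. Besides all members, genes of the pathway lists could be named where they were among the 2 called genes with the largest or the 2 with the smallest log2 fold change in a comparison; some of these are given, while the marker lists are given as counts and sums. Named regardless of their values were Il1rl1, Il1rl2, Il18, Casp1, Cxcl1, Cxcl2, Il6, Il24, S100a8, S100a9 and Nfkbiz. For Il1b, Il1rn and Il33 it gives the most correlated of the genes with a mean log2 CPM of at least 1. Alternatives were other scaling factors, other count filters, a robust fit, DESeq2 1.42.0, a replicate block and leaving out each sample. Comparisons were made with no spiny mouse promoters or protein sequences, which were not used here.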

Additional observations from a re-analysis of the deposited data

Results flagged for a closer look

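Among 40 groups of 4 samples (10 members in 4 groups) 2 held a sample apart from the others of its group, where chance flags about 1 in 20 groups. Il1r2 was at 30.3 CPM in mouse untreated replicate 2, against 71.8 to 75.0 CPM in the other 3. That library also had the highest hair follicle and muscle marker sums of its group, and the part of these in the value was not tested. Without it the log2 fold change of Il1r2 in mouse was -2.14. Il1r1 was at 113 CPM in spiny mouse treated replicate 4, against 77.4 to 80.2 CPM in the other 3. That library had the highest macrophage (1670 CPM against 1030 to 1180), fibroblast (3600 against 2540 to 2940) and endothelial (329 against 272 to 281) marker sums of its group. Its keratinocyte marker sum was the lowest (27100 CPM against 30600 to 34200), and the part of these in the value was not tested.

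The treatment effect differed between the species, by the interaction test in edgeR, for 5 members. The difference of log2 fold changes, spiny mouse minus mouse, was 3.83 for Il1b, 1.34 for Il1r2, 1.09 for Il1rn, -1.3 for Il1a and -2.24 for Il36rn. Each was called in all 24 alternatives, with values from 3.49 to 4.08, from 1.16 to 1.54, from 0.93 to 1.31, from -1.5 to -1.1 and from -2.42 to -2.04.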

How the results depend on the processing

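Over 16 alternatives per species and 24 for the species difference, each member stayed on its side of the threshold except Il1a in mouse, Il1r1 and Il1rap in spiny mouse, and Il1r1 (called in 2), Il1rap (4) and Il36a (2) in the species difference. Scaling by the upper quartile or by library size alone lowered the median log2 fold change of all mouse genes from -0.15 to -0.35 and -0.38, DESeq2 size factors raised it to -0.05, and the share of mouse calls that were higher moved from 42.4% to 30.5%, 28.6% and 48.4%. For the species difference that share moved from 46.4% to 61.1%, 66.0% and 36.9%. Under the upper quartile and library size, uncalled mouse log2 fold changes turned to -0.02 and -0.06 for Casp1, -0.12 and -0.15 for Il1r1, -0.08 and -0.12 for Il1rap, and -0.06 and -0.09 for Il1rl2. Uncalled Il1rl1 in mouse was 0.04 with DESeq2 and with its size factors, 0.09 without a filter, and from -0.34 to 0.2 without 1 sample. Leaving out 1 sample gave it -0.52 to 0.05 in spiny mouse and -0.54 to 0.12 in the species difference. The uncalled species difference of S100a9 was -0.04, -0.05 and -0.06 with DESeq2, its size factors and no filter, and from -0.15 to 0.32 without 1 sample. DESeq2 called 4 members with a lower species difference, in place of 2. Without length, the mean ratios untreated and treated were 3.63 and 3.51 (IL-1), 3.18 and 1.74 (IL-36) and 0.888 and 0.21 (receptors) in mouse, and 2.79 and 2.45 (IL-1) and 1.43 and 0.731 (receptors) in spiny mouse. These ratios leave the gene lengths out of the same CPM values, and that sets their shift. Why the other values moved with the processing was not tested.

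Samples share only a replicate number. Same-numbered samples of the 2 groups deviated from their group means with correlations between -0.008 and 0.023 (mouse) or between -0.526 and -0.195 (spiny mouse). For differently numbered samples the correlations lay between -0.149 and 0.119 (mouse) or between -0.525 and 0.528 (spiny mouse). With a replicate block 11246 mouse and 7418 spiny mouse genes and 5772 species differences were called, against 12085, 8180 and 6344. In that paired fit the spiny mouse log2 fold changes of Il1r1 (0.32, adjusted p = 0.0586) and Il1rap (-0.3, adjusted p = 0.0669) were not called, and the species difference of S100a9 was -0.03. Depth limits Il36a in spiny mouse, with 4 to 82 counts per sample.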
